A study of Hydra vulgaris with 36 samples.

Results

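The subject here is 35 genes of the freshwater polyp Hydra vulgaris, out of 22608 in the deposited table. Their RNA was abundant in mock tentacles, low in ectopic tentacles, and reduced by Zic4 RNAi in both the distal and the proximal part of the tentacle. They were chosen by group means of CPM (a gene's count in a library scaled to a total of 1 M counts, where M stands for mega). A gene had to average at least 10 CPM in each of the 3 mock groups, with a proximal to distal ratio between 1/3 and 3, which left 5022 genes, called the abundant genes below. Of these, 120 lay at or under 1/4 of every mock mean in both ectopic groups. Zic4 RNAi brought 49 of the 120 to 1/2 of mock or less in distal parts and 54 in proximal parts, and 35 of them in both. Another 52 of the 120 stayed above 1/2 of mock in both parts and are set beside the 35 below. The values that chose the genes are given as description only, since a gene could enter the set in no other way.

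All 36 libraries came from wild-type polyps of strain Hm_105, a strain kept in culture. Polyps were electroporated 3 times with small interfering RNA at 1.35 µM, and tentacles were collected 7 days after the last round. Each treatment used 20 to 30 animals, and the tissue was pooled, so a library is a pool and not an animal. Zic4 RNAi (4 libraries) and Sp5 RNAi (3 libraries) tentacles at their normal, original position were divided into distal and proximal parts, as were tentacles of mock RNAi polyps (4 libraries per part). Ectopic tentacles, which stand elsewhere on the body, were taken from Sp5 RNAi polyps (3 libraries) and from Zic4/Sp5 RNAi polyps (4 libraries). Whole original tentacles were taken from Zic4/Sp5 RNAi polyps (4 libraries) and from mock RNAi polyps (3 libraries). The labels do not say what the mock treatment contained. Nor do they say whether libraries of a group came from separate rounds of RNAi, so p-values measure only the spread between these libraries. No name in the gene table matched Zic4 or Sp5, so how far each RNAi lowered its own target is not analysed here.

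A Hydra tentacle is a tube of 2 epithelial layers whose outer cells are battery cells, large epithelial cells that each hold many stinging cells (nematocytes) and some nerve cells. Battery cells no longer divide, are supplied from the body column through the tentacle base, and are shed at the tip. Zic4 is a zinc-finger transcription factor, and Sp5 is another that in Hydra restrains the Wnt signalling through which heads form. By its title, the study is about how Zic4 promotes the making of tentacles and keeps epithelial cells from turning into another kind.

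Little is known by name about the 35 genes. The RefSeq gene table of assembly HydraT2T_AEP held 17 of them (48.6%, against 42.2% of all identifiers in the table), 15 as protein coding. Only LOC100205498 carried a descriptive name there, VEGF, a secreted growth factor that signals through receptor tyrosine kinases. The other genes are given by their identifiers, with no role. Of 14 Wnt and head organizer genes, 7 receptor tyrosine kinase genes and 1 Notch pathway gene matched by name, 1, 4 and 0 were among the abundant genes, and none of them was among the 35. All 3 matched growth factor genes were abundant, and VEGF alone was among the 35. The 35 make up 0.697% of the abundant genes, so lists this short say little. The choice left out 3 well-known genes by name, the tentacle homeobox gene Alx, the battery cell gene annexin XII and the ligand gene hywnt8, and none of them met all of its other conditions.

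Library totals ran from 2.04 M counts (mock distal replicate 4) to 13.3 M counts (Zic4/Sp5 RNAi original replicate 4). Complexity differed too, since mock proximal libraries held 7440 to 8483 genes at 5 CPM or more, against 8740 to 11083 in the other groups. The genes matched as battery cell markers were annexin XII and Alx, the tentacle homeobox gene named above. Both were detected in every library and summed to 1488 CPM or more, nearly all of it annexin XII. Whether Alx marks battery cells was not tested, so the sums stand for annexin XII. Alx alone was at 5.24 to 6.32 CPM in Sp5 RNAi ectopic libraries, against 29.8 to 51.98 CPM in mock distal and 30.8 to 74.2 CPM in mock proximal libraries. In Zic4/Sp5 RNAi ectopic libraries it was at 9.56 to 23.7 CPM, against 93.3 to 131 CPM in mock original libraries. Alx was thus lower than in mock without overlap in both ectopic groups, while annexin XII was at 2924 to 3366 CPM and 1466 to 2355 CPM in them. Gland cell genes (kazal1 and kazal4) summed to 171 to 809 CPM in both ectopic groups together, against 1.31 to 5.80 CPM in mock original and mock distal libraries and 9.56 to 169.9 CPM in mock proximal libraries. The 5 matched genes of nematoblasts, the dividing precursors of nematocytes, summed to 479 to 6598 CPM in ectopic libraries, against 11.8 to 141 CPM in all mock libraries. The 3 genes matched by name as nematocyte genes (nowa, nemgalR1 and nemgalA) summed to 21.2 to 786 CPM in ectopic libraries. In all mock libraries they summed to 5.39 to 37.7 CPM. Whether these genes mark mature nematocytes or their precursors was not tested. Both gland cell genes were detected in both ectopic groups, while kazal4 was at 0 in Sp5 RNAi distal, Sp5 RNAi proximal and mock original libraries. The part of the battery cell markers and of these other cell types in the low levels of the 35 genes in ectopic tentacles was not tested. In pooled tissue, fewer cells of a type and less RNA per cell cannot be told apart.

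**Figure D1:**
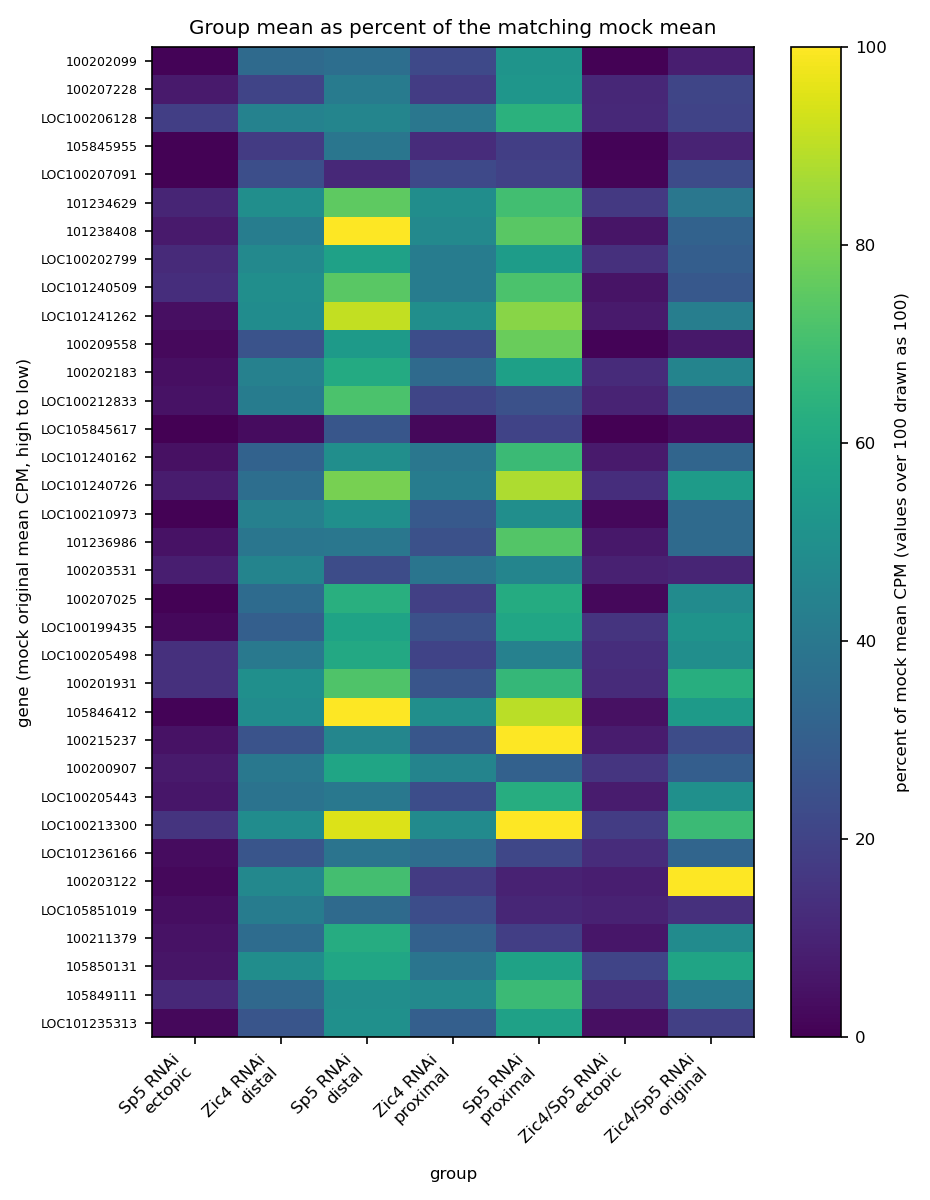
Level of each of the 35 genes (rows, ordered by mock original CPM) in the 7 RNAi groups (columns) as a percent of the matching mock mean in CPM, with colour running from dark (0%) to yellow (100% or more). Both ectopic columns are dark in all rows, at 20.7% or less, and the Sp5 RNAi distal and proximal columns hold most of the bright cells.

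In the groups that chose them, the 35 genes stood at a median of 39.9% of mock in Zic4 RNAi distal parts (3.43% to 49.6%) and at 30.3% in Zic4 RNAi proximal parts (1.97% to 49.3%). The median abundant gene stood at 98.0% and 132% of mock in these parts. In Sp5 RNAi ectopic tentacles the median was 4.87% of the mean of mock distal and mock proximal tentacles (0% to 18.6%), and in Zic4/Sp5 RNAi ectopic tentacles it was 8.43% of mock original tentacles (0.0308% to 20.7%). Both ectopic medians were below both Zic4 RNAi medians, in the order of the limits that chose the genes, and the ranges overlapped. Every Zic4 RNAi library was below every mock library of its part in 24 of the 35 genes in distal parts and in 30 in proximal parts. The other genes overlapped mock. The choice had read these libraries, so the counts only describe the set. The share of all genes that separated in this way was not computed. As the medians of the abundant genes show, the distal and proximal counts do not share a baseline. The summed battery cell markers were 1905 to 4094 CPM in Zic4 RNAi distal libraries, against 2344 to 7278 CPM in mock distal libraries, and 3356 to 4282 CPM in Zic4 RNAi proximal libraries, against 5031 to 9412 CPM in mock proximal libraries. Nematoblast genes summed to 9.91, 338, 11.3 and 352 CPM in Zic4 RNAi proximal replicates 1 to 4, against 25.9 to 141 CPM in mock proximal libraries. In distal parts they overlapped mock, at 9.66 to 31.1 CPM against 11.8 to 39.7 CPM. Gland cell genes overlapped mock in proximal parts, at 14.6 to 66.5 CPM against 9.56 to 169.9 CPM. The part of these markers in the values of the 35 genes was not tested.

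The genes just inside the Zic4 limit were 100201931, LOC101240509 and 105846412, whose larger ratio to mock was 0.496, 0.496 and 0.493. Just outside were LOC100203778, 100213752 and LOC100214004, at 0.501, 0.504 and 0.511. At the ectopic limit, LOC100202799, LOC100213300 and LOC100206128 lay inside at 0.244, 0.231 and 0.216, while LOC100209117, LOC100203647 and LOC105845774 lay outside at 0.2505, 0.253 and 0.255. Both limits therefore cut through a continuous range of ratios. The number of genes chosen ran from 24 without mock distal replicate 4 to 40 without Zic4 RNAi distal replicate 3 or Zic4 RNAi proximal replicate 4, and 16 of the 35 were chosen whichever single library was left out.

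Gene 100202099 had the highest level in mock original tentacles. Its level was 476, 537, 249.6 and 317 CPM in the 4 Zic4 RNAi distal libraries, against 1106, 672, 679 and 2109 CPM in the 4 mock distal libraries. In proximal parts it was 365, 142, 96.4 and 291 CPM after Zic4 RNAi, against 2030.0, 770.0, 817 and 420.4 CPM in mock. Every Zic4 RNAi library of either part was below every mock library of that part, and in mock the distal library with the fewest counts, replicate 4, and proximal replicate 1 stood highest. In ectopic tentacles the same gene was at 7.72, 21.3 and 5.98 CPM after Sp5 RNAi and at 1.87, 17.8, 2.68 and 0.861 CPM after Zic4/Sp5 RNAi. These levels, 1.09% and 0.4995% of mock, lay at the low end of the set.

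Gene 100207228 was the second highest in mock original tentacles. It was at 152, 158, 215 and 152 CPM in Zic4 RNAi distal libraries, against 991, 886, 516 and 909.6 CPM in mock distal libraries. In proximal parts the values were 111, 63.3, 52.1 and 63.7 CPM after Zic4 RNAi and 446, 329, 418 and 448 CPM in mock. The groups did not overlap in either part, and the Zic4 RNAi means were 20.5% and 17.7% of mock. Its ectopic levels of 39.6, 60.6 and 32.6 CPM after Sp5 RNAi and 77.99, 78.8, 72.2 and 96.95 CPM after Zic4/Sp5 RNAi were 7.16% and 11.1% of mock.

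LOC105845617 had the largest reductions of the set by Zic4 RNAi. Its level was 18.4, 0.144, 2.36 and 1.79 CPM in Zic4 RNAi distal libraries, against 167, 257, 49.1 and 187 CPM in mock distal libraries. In proximal parts it was 3.12, 1.16, 0.269 and 0.145 CPM after Zic4 RNAi, against 9.51, 73.6, 135 and 19.6 CPM in mock. No Zic4 RNAi library reached the lowest mock library of the same part, and a single Zic4 RNAi distal library, replicate 1, carried most of that group's signal. No read of it was counted in the 3 Sp5 RNAi ectopic libraries, where 3 counts would correspond to 0.39 to 0.474 CPM, and 2 reads in all were counted in the 4 Zic4/Sp5 RNAi ectopic libraries.

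**Figure D2:**
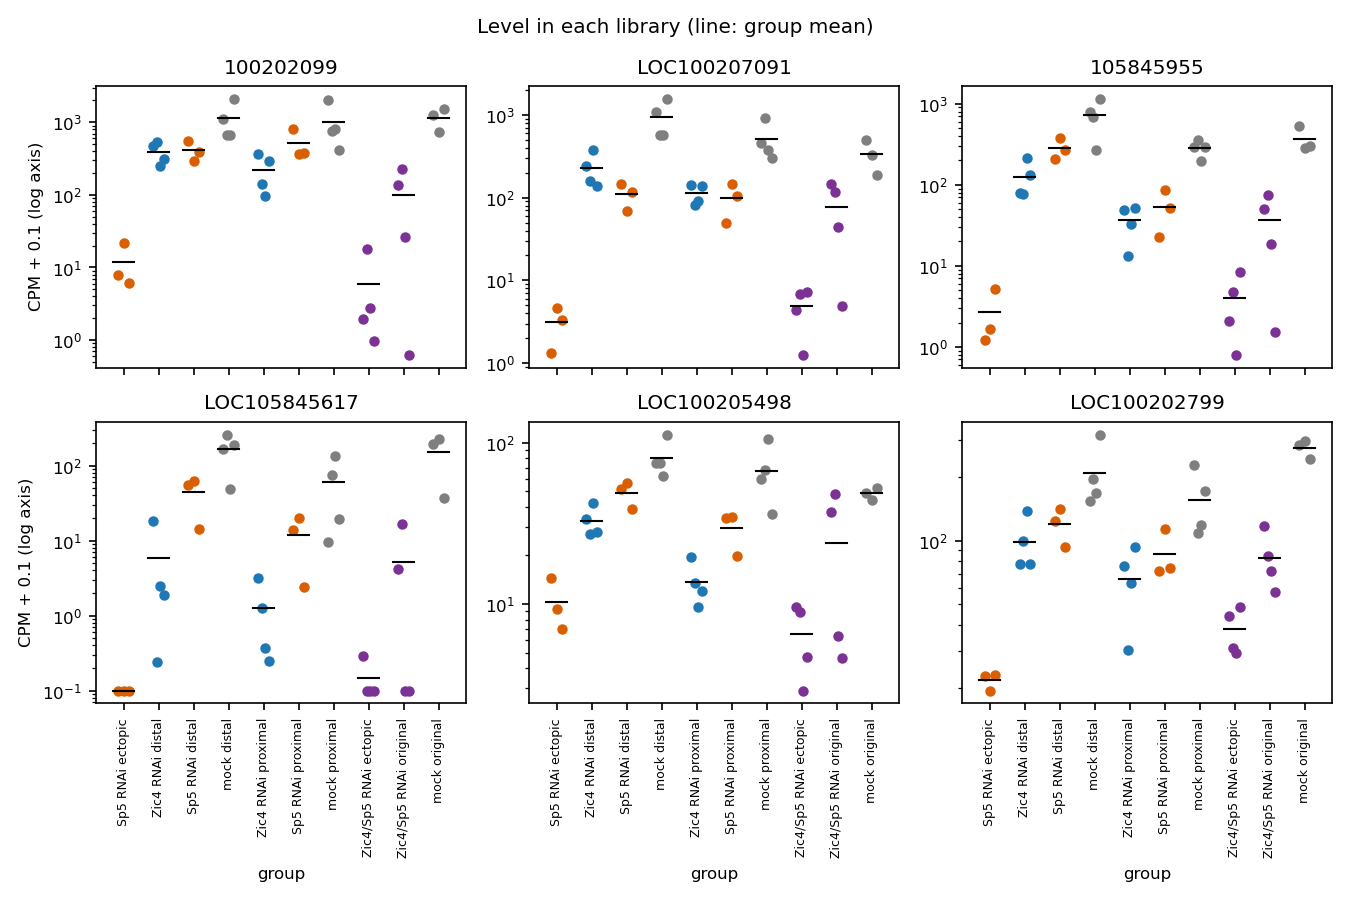
CPM plus 0.1 (log axis) of 6 of the 35 genes in every library, by group, with 1 point per library and a line at the group mean. The means of both ectopic groups lie lowest in all 6 panels, and the 4 Zic4/Sp5 RNAi original points spread widely in every panel but that of LOC100202799.

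LOC100205498, the VEGF gene, was at 33.6, 26.95, 42.4 and 27.7 CPM in Zic4 RNAi distal libraries, against 74.4, 74.7, 62.4 and 112 CPM in mock distal libraries. In proximal parts the values were 19.5, 13.4, 9.53 and 12.01 CPM after Zic4 RNAi and 59.9, 67.6, 105 and 35.95 CPM in mock. In both parts every Zic4 RNAi library was below every mock library, at a mean of 40.3% and 20.3% of mock. In ectopic tentacles the mean was 13.7% of mock after Sp5 RNAi and 13.3% after Zic4/Sp5 RNAi, in the upper part of the set's range.

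Mock libraries differed among themselves in these genes. Over the set, the median gene stood at 140% of its mock distal mean in replicate 4 of that group and at 62.8% in replicate 3, and replicate 4 was the highest mock distal library in 22 of 35 genes. The 52 genes that Zic4 RNAi did not bring to 1/2 of mock stood at a median of 99.7% in the same library. That library had the lowest total of all 36. Gene 100203122 rested on 1 mock library in proximal parts, with 3.17, 158, 5.44 and 29.01 CPM, against 4.44, 3.76, 6.31 and 19.4 CPM after Zic4 RNAi, so that its groups overlapped.

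**Figure D3:**
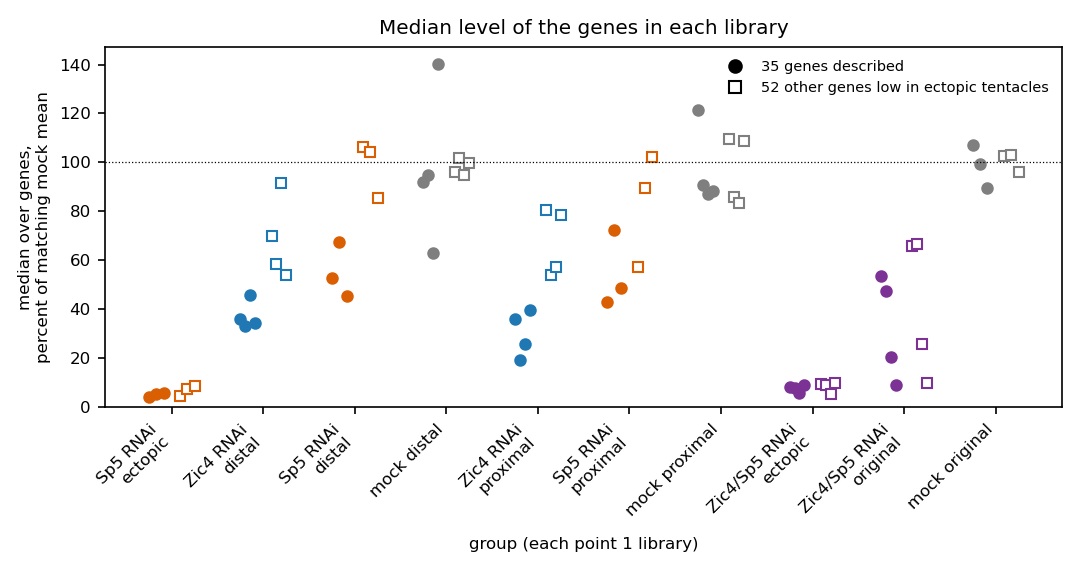
Median percent of mock over the 35 genes (and over the 52 other genes low in ectopic tentacles) in each library, by group, with RNAi groups left of their mock group. The 35 genes lie under the 52 in every Zic4 RNAi library, which the choice fixed, and in every Sp5 RNAi original library, which it did not read, although it read the mock means that both are set against.

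There were 3 groups that played no part in choosing the genes: Sp5 RNAi distal, Sp5 RNAi proximal and Zic4/Sp5 RNAi original tentacles. Sp5 RNAi original tentacles keep Zic4 untargeted, so they show the same genes when only Sp5 is targeted. The 35 genes stood at a median of 57.1% of mock in Sp5 RNAi distal parts (11.7% to 107%) and at 57.7% in Sp5 RNAi proximal parts (9.38% to 112%). The median for the 52 other genes low in ectopic tentacles was 101% in distal and 80.4% in proximal parts. For the abundant genes it was 96.5% and 118%, so percents of mock in the 2 parts do not share a baseline. In distal parts 15 of the 35 were at or below 50% of mock, against 2.19% of the abundant genes, and in proximal parts 12 were, against 2.03%. The mock libraries of these comparisons are the ones that chose the genes, so the levels relative to mock are not independent of the choice.

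The comparison of Sp5 RNAi distal with Sp5 RNAi proximal parts is the one that sets against each other only libraries the choice had not read. The spread was still estimated over all 25 libraries of the fit, which include ones it had read. It asks whether the set differs along the tentacle after Sp5 RNAi. Over all 14332 genes tested, 22.7% were called at an adjusted p under 0.05 by edgeR's quasi-likelihood test with Benjamini-Hochberg adjustment, 10.6% higher and 12.1% lower in distal parts. Of the 35 genes 1 was called, higher in distal parts, and 6 had an unadjusted p under 0.05. Their median log2 fold change was 0.16, with 21 above 0 and 14 below, and the median of all genes tested was -0.03. Among the abundant genes the median was -0.28, with 5.69% called higher and 18.2% called lower in distal parts. With the 6 Sp5 RNAi distal and proximal libraries alone, so that no library of the choice entered the fit, 7 of the 35 passed, with 5 above and 2 below their proximal level, and 30.7% of the 12482 genes tested were called (edgeR). Of the 52 other genes low in ectopic tentacles, 17 were called, 14 of them higher in distal parts. Those fold changes use TMM scaling, which sets libraries to a common level over most genes. On unscaled CPM, with 0.5 added before the log, the median log2 ratio was 0.60 for the 35 genes, and 8 of the 35 were below 0. It was 0.32 for all genes and 0.12 for the abundant genes. By group means of CPM, 27 of the 35 were higher in distal than in proximal parts after Sp5 RNAi. In mock 29 were, and after Zic4 RNAi 31. Among the abundant genes the shares were 56.1%, 73.9% and 44.7% in the same order. The choice had read the mock and Zic4 RNAi means.

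The gene called was 105845955. Its level was 211, 381 and 265 CPM in Sp5 RNAi distal libraries, against 22.4, 85.9 and 52.1 CPM in Sp5 RNAi proximal libraries, with no overlap. The log2 fold change was 2.08 with a standard error of 0.59 (adjusted p = 0.0142, edgeR). The call was lost without Sp5 RNAi distal replicate 2 and without Sp5 RNAi proximal replicate 1. In neither of these fits was any of the 35 called, and 3 and 4 of them had an unadjusted p under 0.05 (edgeR). Over all genes 1905 and 1193 were called in these fits, against 3255 with all libraries. DESeq2 called 3 of the 35 with all libraries. Without overlap, 13 of the 35 were higher in distal libraries, 105845955 included, and 2 were lower. Such separation held for 33.2% and 11.9% of all genes tested, and for 1387 and 827 of the 5022 abundant genes.

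**Figure D4:**
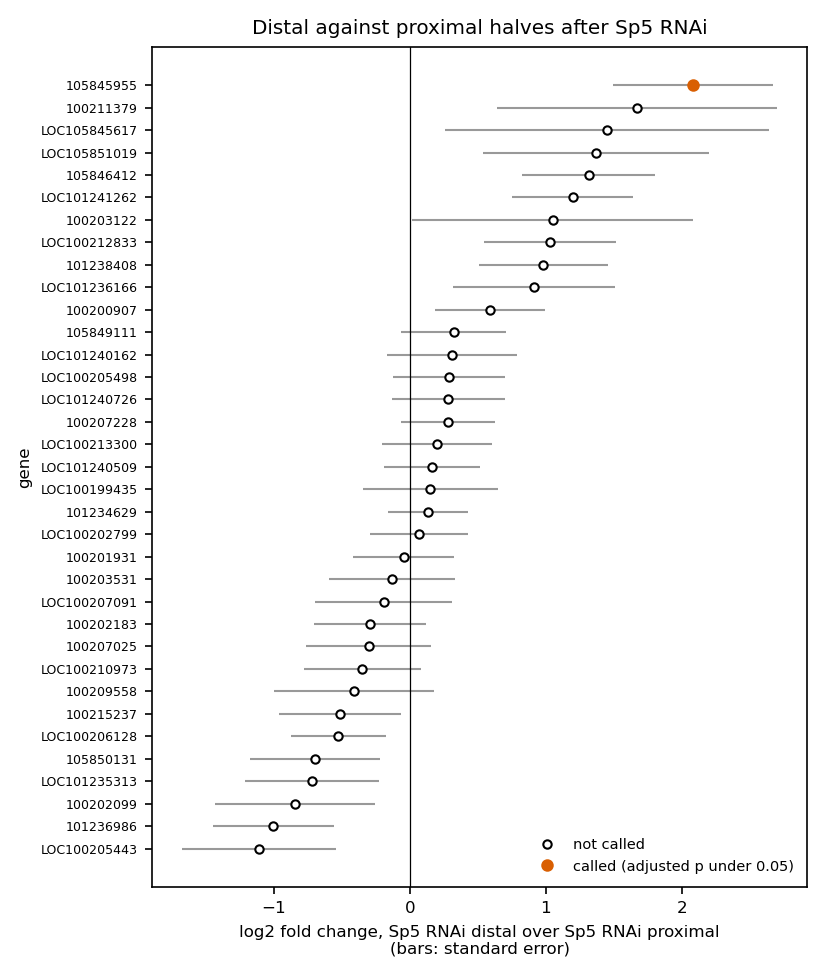
Log2 fold change of each of the 35 genes, Sp5 RNAi distal over Sp5 RNAi proximal (edgeR, TMM scaling), with bars for the standard error and genes ordered by value. The filled point at 2.08 is the gene called, 105845955, and the other 34 lie between -1.11 and 1.67.

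In Sp5 RNAi distal parts set against mock distal parts, 2.29% of all genes were called, 0.6% lower. Among the abundant genes, from which the 35 were drawn, 1.25% were called lower. Of the 35 genes 4 were called, each lower: LOC100207091, 100203531, 100207228 and LOC100206128. The median log2 fold change of the set was -1.02, against -0.03 over all genes and -0.22 over the abundant genes. On unscaled CPM these medians were -0.80, 0.11 and -0.05. All 35 values were below 0 on the TMM scale, and on unscaled CPM 105846412 stood above mock, at 107%. In 13 genes every Sp5 RNAi distal library was below every mock distal library, as in 4% of all genes tested and 6.87% of the abundant genes. The choice had read these mock distal libraries. The summed battery cell markers, nearly all annexin XII, were lower without overlap as well. They were at 1644 to 1909 CPM in Sp5 RNAi distal libraries, against 2344 to 7278 CPM in mock distal libraries. Alx alone overlapped mock, at 24.5 to 33.4 CPM against 29.8 to 51.98 CPM. The part of these markers in the result was not tested. The count of 4 was 2 when Sp5 RNAi distal replicate 1, Sp5 RNAi distal replicate 3 or mock distal replicate 4 was left out. It was 6 when mock distal replicate 1 was left out, and 8 by DESeq2 with all libraries. Over all genes 206, 103, 185, 562 and 590 were called in these fits in the same order, against 328 by edgeR with all libraries.

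LOC100207091 was the lowest of these. It had 145, 69.3 and 118 CPM in Sp5 RNAi distal libraries, against 1092, 574, 570.1 and 1557 CPM in mock distal libraries. The log2 fold change was -3.31 ± 0.53 (SE, adjusted p = 0.000804, edgeR). It was also lower in the other part, at 48.8, 144 and 105 CPM in Sp5 RNAi proximal libraries against 456, 917, 378 and 302 CPM in mock proximal libraries, with a log2 fold change of -3.02 ± 0.53 (adjusted p = 0.00167, edgeR). The groups overlapped in neither part. Its Sp5 RNAi means, 11.7% and 19.4% of mock, were below its Zic4 RNAi means of 23.9% and 22.1%, a difference not tested. This is one of the 2 genes, with 100203531, whose distal call held without any 1 library.

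Gene 100203531 had 19.2, 29.4 and 24.6 CPM in Sp5 RNAi distal libraries, against 43.8, 107, 116 and 153 CPM in mock distal libraries, with no overlap. Its log2 fold change was -2.32 ± 0.45 (SE, adjusted p = 0.00493, edgeR). It had 57.5, 35.02, 60.5 and 37.6 CPM in Zic4 RNAi distal libraries, which overlap the mock range. The distal calls of 100207228 and LOC100206128 were lost without some libraries, at log2 fold changes of -1.45 ± 0.34 and -1.34 ± 0.34 (SE, adjusted p = 0.0175 and 0.0299, edgeR). Their Sp5 RNAi distal values were 366, 409 and 254 CPM and 283, 285 and 215 CPM. At the other end, 101238408 and LOC100213300 stood at 99.6% and 94.6% of mock.

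Some of the 35 genes stayed near mock after Sp5 RNAi. Gene 105846412 had 61.8, 61.02 and 63.2 CPM in Sp5 RNAi distal libraries, against 32.5, 72.1, 58.9 and 67.7 CPM in mock distal libraries, and 12.1, 22.5 and 23.4 CPM in Sp5 RNAi proximal libraries, against 25.7, 16.2, 19.2 and 25.4 CPM in mock proximal libraries. LOC100213300 had 37.8, 58.8 and 51.1 CPM in Sp5 RNAi distal libraries, against 40.7, 53.9, 32.7 and 80.9 CPM in mock distal libraries, and 31.4, 35.8 and 29.3 CPM in Sp5 RNAi proximal libraries, against 52.95, 24.7, 17.98 and 19.6 CPM in mock proximal libraries. The groups of both genes overlapped in both parts, and neither was called. In Zic4 RNAi tentacles the same genes were just under the limit of choice, at 48.7% and 48.7% of mock in distal parts, and in ectopic tentacles of Sp5 RNAi polyps they were at 1.09% and 15.1%. Gene 100215237 stood at 45.8% of mock in Sp5 RNAi distal and 109% in Sp5 RNAi proximal parts, and the test of that difference is given with the interaction below.

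In Sp5 RNAi proximal parts set against mock proximal parts, 6.68% of all genes were called, 2.37% lower. Among the abundant genes 5.52% were called lower. Of the 35 genes 14 were called, each lower. In 9 of the 35, among them 105850131, which was not called, every Sp5 RNAi library was below every mock library. This held for 1.54% of all genes tested and 2.63% of the abundant genes. The median log2 fold change was -1.27, against 0.03 over all genes and -0.25 over the abundant genes. On unscaled CPM the same medians were -0.77, 0.48 and 0.24, so the scaling shifted all genes together. On that scale LOC100213300 and 100215237 stood above mock, at 112% and 109%. Sp5 RNAi proximal libraries had 8740 to 10024 genes at 5 CPM or more, against 7440 to 8483 in mock proximal libraries, and totals of 2.57 to 3.22 M counts. The summed battery cell markers covered the same range in both, 5035 to 9418 CPM in Sp5 RNAi proximal libraries and 5031 to 9412 CPM in mock proximal libraries. With that number of genes as a covariate none of the 35 was called by edgeR, 8 had an unadjusted p under 0.05, and the median was -0.61. The number did not overlap between these 2 groups, so the fit cannot fully separate it from the RNAi. DESeq2, without the covariate, called 22. Without Sp5 RNAi proximal replicate 3 the edgeR count was 5. Over all genes 261 were called in that fit, against 958 with all libraries.

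Of the 14 called, 5 held without any 1 library: 105845955, LOC100207091, LOC100212833, 100200907 and LOC105851019. Gene 105845955 had 22.4, 85.9 and 52.1 CPM in Sp5 RNAi proximal libraries, against 294, 361, 198 and 296 CPM in mock proximal libraries, a log2 fold change of -3.03 ± 0.59 (SE, adjusted p = 0.00421, edgeR). LOC100212833 had 36.96, 46.3 and 81.4 CPM against 66.3, 325, 315 and 184 CPM in mock, with a log2 fold change of -2.68 ± 0.49 (adjusted p = 0.00259, edgeR). The first did not overlap mock and the second did. LOC105851019 had 0.621, 1.94 and 2.64 CPM against 2.85, 22.3, 17.6 and 22.6 CPM in mock, the second-lowest log2 fold change of the called genes at -3.88 ± 0.81 (adjusted p = 0.00598, edgeR), with 15 reads in all behind its Sp5 RNAi values. The VEGF gene LOC100205498 had 33.9, 34.6 and 19.8 CPM in Sp5 RNAi proximal libraries, against the mock values given above, with no overlap, and was called lower at -1.71 ± 0.40 (adjusted p = 0.0117, edgeR). In distal parts it was not called, with 51.3, 56.3 and 38.98 CPM after Sp5 RNAi and a log2 fold change of -0.92 ± 0.39 (adjusted p = 0.239, edgeR). The proximal call was lost without Sp5 RNAi proximal replicate 3 (adjusted p = 0.0983), with the Sp5 RNAi and mock proximal libraries alone (adjusted p = 0.0804) and with the number of genes at 5 CPM or more as a covariate (adjusted p = 0.939, edgeR), where the log2 fold change was -0.18. Over all alternatives other than leaving out a library, its adjusted p ran from 0.000986 by DESeq2 to 0.939.

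Whether the effect of Sp5 RNAi differed between the parts was tested as an interaction. Over all genes 0.014% passed, 2 in number, and none of the 35 did by edgeR. Of the 35, 4 had an unadjusted p under 0.05, and their smallest adjusted p was 0.372 (edgeR). For 100215237 the adjusted p was 0.673. The counts of 4 called genes in distal and 14 in proximal parts therefore do not show a difference between the parts.

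Whole original tentacles after Zic4/Sp5 RNAi ask what the set does when both factors are targeted at the normal position. The 35 genes stood at a median of 32.6% of mock original (3.34% to 114%), and 27 were at or below 50%, against 5.99% of the abundant genes. The 52 other genes low in ectopic tentacles stood at 41.8%. Of all genes tested 4.39% were called, 2.03% lower, and of the abundant genes 4.64% were called lower. Of the 35 genes 10 were called, each lower. In 23 of the 35 every Zic4/Sp5 RNAi original library was below every mock original library, as in 7.35% of all genes and 13.6% of the abundant genes. The median log2 fold change was -1.76, against 0.04 over all genes and -0.16 over the abundant genes. Of the 35 values 34 were below 0. On unscaled CPM the medians were -1.57, 0.17 and -0.01. The choice had read the mock original libraries. The count of 10 was 17 without Zic4/Sp5 RNAi original replicate 2, 5 without replicate 3 of that group, and 5, 3 and 2 without mock original replicates 2, 3 and 1. Over all genes 1467, 287, 143, 103 and 56 were called in these fits, against 651 with all libraries. The counts of the set thus moved with those of all genes. Zic4/Sp5 RNAi original libraries held 10203 to 10981 genes at 5 CPM or more, against 9898 to 10043 in mock original libraries. The count was 2 with that number as a covariate, where the median was -0.54, and 16 by DESeq2. Here too the number did not overlap between the groups, so the covariate fit cannot fully separate it from the RNAi.

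The 4 Zic4/Sp5 RNAi original libraries stood apart from each other. The median gene of the set was at 53.4%, 47.4%, 20.3% and 9.10% of mock original in replicates 1 to 4. Replicates 3 and 4 were both below replicates 1 and 2 in 32 of 35 genes (91.4%), as in 88.5% of the 52 other genes and 29.7% of the abundant genes. Gland cell genes summed to 45.9, 1.91, 813 and 280.0 CPM in replicates 1 to 4, against 1.84, 5.80 and 3.75 CPM in mock original libraries. Nematoblast genes summed to 17.04, 17.6, 241 and 2707 CPM, against 82.9, 56.9 and 12.95 CPM in mock. Battery cell genes summed to 1978, 2009, 2424 and 2513 CPM, against 2876, 2938 and 2919 CPM in mock. Replicates 3 and 4, with the lowest levels of the 35 genes, had more of both the gland cell and the nematoblast genes than replicates 1 and 2, and the part of this in the result was not tested.

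**Figure D5:**
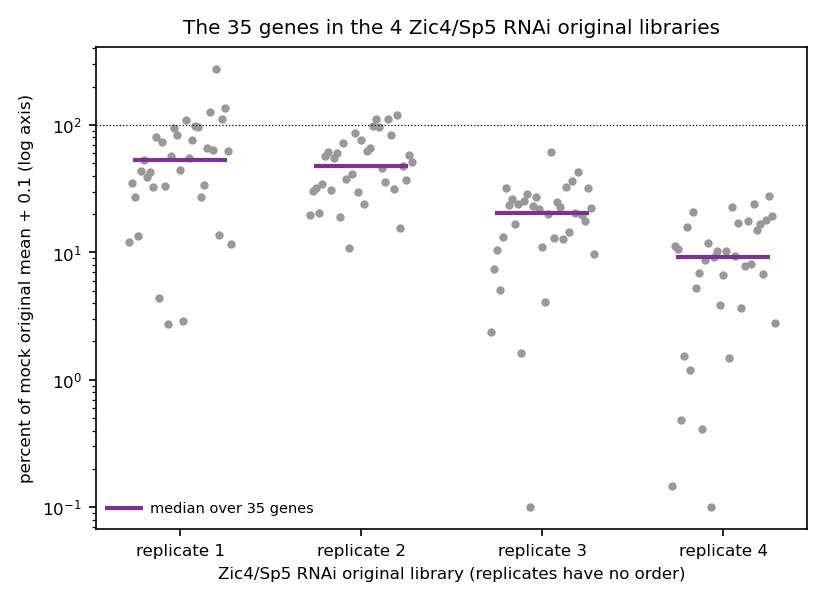
Each of the 35 genes in the 4 Zic4/Sp5 RNAi original libraries as a percent of its mock original mean plus 0.1 (log axis), with 1 grey point per gene and a bar at the median. The dotted line is the mock mean, and the medians are 53.4%, 47.4%, 20.3% and 9.10% in replicates 1 to 4.

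The calls of 2 genes, LOC100202799 and LOC105851019, held without any 1 library. LOC100202799 had 117, 84.5, 71.6 and 56.9 CPM in Zic4/Sp5 RNAi original libraries, against 283, 297 and 244 CPM in mock original libraries, a log2 fold change of -1.88 ± 0.25 (SE, adjusted p = 0.00527, edgeR). LOC105851019 had 2.19, 2.46, 3.11 and 1.05 CPM against 14.1, 22.8 and 10.9 CPM in mock, -2.99 ± 0.40 on the log2 scale (adjusted p = 0.00539, edgeR). Both had all 4 RNAi libraries below all 3 mock libraries.

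Gene 100209558 had the lowest log2 fold change among the called genes, with 7.25, 32.1, 2.57 and 0.527 CPM in Zic4/Sp5 RNAi original libraries, against 215, 135 and 159 CPM in mock original libraries with no overlap (-4.16 ± 0.97, adjusted p = 0.0396, edgeR). Gene 100202099 had 139, 227, 26.4 and 0.527 CPM against 1245, 736 and 1509 CPM in mock and was not called (adjusted p = 0.151, edgeR), although its mean was 8.43% of mock and its 4 libraries spanned a wide range. Gene 100203122 was the only one above mock on average, at 49.9, 21.6, 7.71 and 3.01 CPM against 16.7, 23.4 and 14.1 CPM, and its log2 fold change of 0.04 was -0.88 without Zic4/Sp5 RNAi original replicate 1. Both LOC101236166 and 100200907, called lower in Sp5 RNAi proximal parts, were called here too, at 16.00, 7.93, 5.14 and 3.77 CPM against 24.4, 25.6 and 26.00 CPM in mock and at 11.2, 11.6, 10.7 and 5.80 CPM against 37.1, 28.3 and 33.04 CPM in mock. Their log2 fold changes were -1.77 ± 0.44 and -1.88 ± 0.30 (SE, adjusted p = 0.0489 and 0.0112, edgeR). LOC100205498 (VEGF) was at 37.3, 47.7, 6.22 and 4.52 CPM against 49.1, 43.9 and 52.6 CPM in mock and was not called (adjusted p = 0.367, edgeR).

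Set over the 3 comparisons with mock, 19 of the 35 genes were called in none, 6 in 1, 8 in 2 and 2 in all 3, each call being lower than mock. Of the 14092 genes tested in all 3, 95.5% were called lower in none, 3.96% in 1, 0.44% in 2 and 0.0993% in all 3. For the abundant genes these shares were 90.1%, 8.58%, 1.06% and 0.239%. The choice had read the mock libraries of each comparison. The 2 genes called in all 3 were 100207228 and LOC100206128, and none of their calls held whichever single library was left out. For LOC100206128 the distal, proximal and whole tentacle calls were made in 3, 2 and 2 of 7 fits without 1 library, and for 100207228 in 4, 6 and 4 of 7. LOC100206128 had 294, 336 and 203 CPM in Sp5 RNAi proximal libraries, against 599, 382, 358 and 402 CPM in mock proximal libraries, and 165, 193, 62.4 and 63.8 CPM in Zic4/Sp5 RNAi original libraries, against 628, 601 and 582 CPM in mock original libraries. It never overlapped mock in these groups. For 100207228 the corresponding values were 158, 348 and 140.4 CPM after Sp5 RNAi in proximal parts and 257, 220.2, 53.97 and 81.3 CPM after Zic4/Sp5 RNAi, against 846, 694 and 653 CPM in mock original libraries. The Sp5 comparisons share no mock libraries with each other or with the Zic4/Sp5 comparison, but each shares its mock libraries with the choice of the genes.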

How the data were processed

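RNA from 36 pools of Hydra vulgaris tentacles was measured. Per the labels, cDNA was amplified by the SmartSeq2 protocol and libraries were made by Tn5 tagmentation. These steps mention no molecular identifiers, so floors of 3 counts cover counting error only. The values used are the read counts per gene and library that the authors deposited, all whole numbers and not normalized. The submitters' processing notes name bcl2fastq and STAR 2.5.0. The counting program, genome build and strand setting are not given in the sources used here, so values of genes that share reads with a similar or overlapping gene are uncertain.

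The 35 genes and the lists of other genes were chosen with earlier results of these data known. Levels are CPM on each library's total, which ran from 2.04 to 13.3 M counts. Tests were run in R 4.3.3 on the counts by edgeR 4.0.16 (filterByExpr, TMM scaling, robust quasi-likelihood test, Benjamini-Hochberg adjustment over all genes tested, called at 0.05). The 25 libraries of divided and Sp5 RNAi ectopic tentacles (14332 genes) and the 11 of whole original and Zic4/Sp5 RNAi ectopic tentacles (14826 genes) were fitted apart. Standard errors are the log2 fold change over the root of F. The fits were tested on simulated data. Alternatives were size factors of the RLE kind, no low count filter, DESeq2 1.42.0, the compared groups alone, a block by replicate number, the number of genes at 5 CPM or more as a covariate, each library left out, and changes to the limits of the choice. Named genes are the 12 highest in mock original tentacles, the 3 highest and 3 lowest called in each comparison, those at the limits of the choice, those with extreme ratios to mock, and VEGF, the only one on a role list. Some of these are given only in counts and ranges, and LOC100212833 and 100200907 were named after their values were seen, because their calls held without any 1 library. Gene names came from the RefSeq gene table of assembly HydraT2T_AEP. Sequences were not used here.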

Additional observations from a re-analysis of the deposited data

Results flagged for a closer look

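In each group of 4 libraries, a gene's highest or lowest library was picked out where its gap to the nearest other library took a share of the group's range above Dixon's 95% critical value. Over the 35 genes and 6 groups of 4, 210 sets were looked at and 17 values in 14 genes stood out. That critical value picks out about 1 in 20 sets of independent, normally distributed values. CPM values are not known to be normal and the genes share libraries, so the 17 cannot be set against that rate. Values are in CPM, and the set of each holds 4 libraries.

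Among Zic4/Sp5 RNAi ectopic libraries, gene 100202099 stood at 17.8 in replicate 2, above the 0.861 to 2.68 of the other libraries. LOC105845617 lay at 0.187 in replicate 1, above the 0 in each of the other libraries. Gene 100203531 stood at 3.60 in replicate 4, below the 7.99 to 8.51 of the other libraries. Among Zic4 RNAi distal libraries, gene 100207228 stood at 215 in replicate 3, above the 152 to 158 of the other libraries. LOC105845617 lay at 18.4 in replicate 1, above the 0.144 to 2.36 of the other libraries. LOC101240726 stood at 109 in replicate 1, below the 174 to 183 of the other libraries. Gene 100203122 lay at 16.5 in replicate 3, above the 4.47 to 5.95 of the other libraries. Among Zic4 RNAi proximal libraries, LOC100206128 stood at 258 in replicate 1, above the 138 to 151 of the other libraries. LOC100199435 lay at 45.9 in replicate 1, above the 16.9 to 21.5 of the other libraries. Gene 100201931 stood at 23.7 in replicate 1, above the 14.4 to 15.6 of the other libraries. Gene 100203122 lay at 19.4 in replicate 4, above the 3.76 to 6.31 of the other libraries. Among mock proximal libraries, gene 100202183 stood at 361 in replicate 1, above the 174 to 194 of the other libraries. Gene 100203122 lay at 158 in replicate 2, above the 3.17 to 29.0 of the other libraries. Among mock distal libraries, gene 100215237 stood at 106 in replicate 4, above the 40.4 to 48.9 of the other libraries. LOC100205443 lay at 68.6 in replicate 4, above the 12.9 to 17.8 of the other libraries. Among Zic4/Sp5 RNAi original libraries, gene 100200907 stood at 5.80 in replicate 4, below the 10.7 to 11.6 of the other libraries. Gene 105850131 lay at 20.7 in replicate 1, above the 4.14 to 5.61 of the other libraries. LOC105845617 in Zic4/Sp5 RNAi ectopic replicate 1 rests on 2 reads. These values fell on several libraries, with 3 in Zic4 RNAi proximal replicate 1.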

How the results depend on the processing

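The choice of genes moved with scaling and limits: TMM-scaled CPM gave 70 genes (34 of the 35 among them), an ectopic limit of 1/8 gave 20, and a Zic4 limit of 1/3 gave 8. Leaving out 1 library gave 24 to 40. In Sp5 RNAi distal against proximal parts, the 35 genes gave 3 calls with RLE size factors, 2 with no low count filter, 7 with the compared groups alone, 2 with the replicate block, 2 with the complexity covariate (genes at 5 CPM or more) and 3 with DESeq2, and all genes gave 1106 with the complexity covariate. In Sp5 RNAi distal against mock distal parts, the 35 gave 2 with the groups alone, 2 with the complexity covariate and 8 with DESeq2, where all genes gave 180, 186 and 590. In Sp5 RNAi proximal against mock proximal parts, the 35 gave 8 with the groups alone, 0 with the complexity covariate (median -0.61) and 22 with DESeq2, where all genes gave 302, 83 and 1484, and 512 with the replicate block. In Zic4/Sp5 RNAi original against mock original tentacles, the 35 gave 2 with the groups alone, 2 with the complexity covariate and 16 with DESeq2, where all genes gave 75, 282 and 1857, and 335 with the replicate block. The groups alone hold fewer libraries; otherwise the cause was not tested.

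Without 1 library, calls among the 35 ran from 0 to 1, 2 to 6, 5 to 17 and 2 to 17 in these 4 comparisons in the same order. Calls over all genes ran from 1193 to 3644, 103 to 562, 261 to 1243 and 56 to 1467. Median log2 fold changes of the 35 ran from 0.02 to 0.31, from -1.21 to -0.73, from -1.45 to -1.12 and from -2.004 to -1.41. Same-numbered libraries did not deviate together (correlations from -0.139 to 0.116), so the numbers were not taken as pairs and the block is given for its counts only.

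With the complexity covariate 4, 3, 8 and 8 of the 35 changed the sign of their log2 fold change in the 4 comparisons in the same order, none of them called with all libraries and no covariate. In each of the 4 comparisons the covariate did not overlap between the groups compared, so these fits cannot fully separate the covariate from the group. In Sp5 RNAi distal against mock distal parts, 105846412 reached 0.0221 with the replicate block and 0.0395 with the complexity covariate, and ran from -0.33 to 0.0694 without 1 library, above 0 without mock distal replicates 2 and 4. LOC100213300 reached 0.0224 with the covariate and ran from -0.49 to 0.10, and 101238408 ran from -0.57 to 0.11, both above 0 without mock distal replicate 4. In Sp5 RNAi proximal parts, 8 genes were above 0 with the covariate, led by 100215237 at 0.51, LOC100205443 at 0.33 and LOC100213300 at 0.31, and LOC100213300 ran from -0.46 to 0.019, above 0 without mock proximal replicate 1. In Zic4/Sp5 RNAi original tentacles, 8 genes were above 0 with the covariate, led by LOC100205443 at 1.05, LOC100205498 (VEGF) at 0.76, LOC101240726 at 0.66, 100201931 at 0.63 and LOC100213300 at 0.62. Gene 100203122, above 0 with all libraries, reached -0.15 with the replicate block and ran from -0.88 to 0.41, below 0 without Zic4/Sp5 RNAi original replicate 1 and without mock original replicates 1 and 3. Depth limits genes near 10 CPM most, in mock distal replicate 4, mock proximal replicates 1 and 3 and the Sp5 RNAi proximal libraries, where 3 counts stand for 0.932 to 1.47 CPM.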
